A study of Rattus norvegicus with 18 samples.

Results

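Cultured nucleus pulposus cells that had received no compound were compared between the experiments of a study of G-quadruplex ligands. The members were the 9 untreated libraries of 18 in all, chosen by their labels: 3 controls of the PDS experiment, 3 controls of the Phen-DC3 experiment and 3 controls whose titles name no compound, here called plain controls. All were cells of Sprague Dawley rats aged 8 weeks, freed from disc tissue, cultured in DMEM with fetal bovine serum and antibiotics, and seeded in plates for 24 h before the treatment period. The other 9 libraries came from cells given PDS, Phen-DC3 or Braco-19, and the plain controls are the remaining control group beside Braco-19. The series describes the 3 libraries of a group as biological repeats, but separate animals, the vehicle of the controls and the dates of the experiments are not in the labels. Every difference between the control groups is therefore also a difference between experiments, which are told here from the compound names in the titles. Animals, culture, RNA handling and library preparation cannot be told apart in it, and the p-values of genes measure only the spread between libraries of a group.

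The nucleus pulposus is the gelatinous core of the intervertebral disc, derived from the notochord and rich in aggrecan and type II collagen. It has almost no blood supply, so its cells live at low oxygen and obtain much of their energy from glycolysis. In monolayer culture such cells attach, enter the cell cycle and tend to lose cartilage-type matrix expression in favour of a fibroblast-type one. PDS (pyridostatin), Phen-DC3 and Braco-19 are small molecules that bind and stabilize G-quadruplexes, 4-stranded structures of guanine-rich nucleic acid.

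The untreated libraries held 15715121 to 16988858 counts in genes. Labels were checked against markers. Of 16 notochordal markers in the table, 9 passed the filter on low counts, among them Krt8, Cd24 and Lgals3, while Tbxt, Shh, Noto, Krt19 and Sostdc1 were at 0 counts in all 9 libraries. Some markers of leukocytes (Ptprc), complement-producing macrophages (C1qa, Cd163), endothelium (Cdh5, Cldn5), red cells (Hbb, Hba-a1) and keratinocytes (Krt5, Krt14) were also at 0 in all 9. Other members of the endothelial (3), erythroid (1) and epithelial (4) lists passed the filter, so these zeros do not show that such cells were absent. The summed level of the macrophage and leukocyte list was 95.6 to 114.3 CPM (counts scaled to a common library size, with TMM factors) in the 6 PDS and Phen-DC3 controls and 35.0 to 42.8 CPM in the plain controls, and 2 of its 18 members passed the filter. Almost all of that sum was Cd14, the lipopolysaccharide co-receptor, which fibroblasts can also express, with 109.9 and 100.3 CPM in the PDS and Phen-DC3 controls against 34.2 CPM in the plain controls. The other member tested, the macrophage marker Cd68, went the opposite way, with 1.08 and 1.15 CPM in the PDS and Phen-DC3 controls against 2.58 CPM in the plain controls and a log2 difference of -1.21 (-1.74 corrected), where "corrected" means corrected for gene length as described below.

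The cultures fell into 2 states. The PDS and Phen-DC3 controls were close to each other, and both stood far from the plain controls. The median absolute log2 difference per gene between 2 libraries was 0.105 to 0.244 within a group and 0.121 to 0.304 between a PDS control and a Phen-DC3 control. It was 0.578 to 0.755 between a plain control and any of the other 6. Of 13727 genes tested with edgeR's quasi-likelihood test, 10280 differed between the mean of the PDS and Phen-DC3 controls and the plain controls, 74.9% of those tested, at a Benjamini-Hochberg adjusted p under 0.05. Of these, 5033 (36.7%) were higher and 5247 (38.2%) were lower in the PDS and Phen-DC3 controls. A log2 difference past 2 was called for 193 genes in the higher direction (1.41%) and for 751 in the lower (5.47%). Set against the plain controls separately, the PDS controls differed in 9992 genes (72.8%) and the Phen-DC3 controls in 9409 (68.5%). These 2 comparisons share the plain controls. The PDS and Phen-DC3 controls differed from each other in 132 genes (0.962%).

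Much of this difference followed the length of the gene model. Genes over 5000 bp held 25.07 to 25.43% of the counts of each plain control, and 7.98 to 10.7% of the counts of the other 6 libraries. The groups did not overlap, and the difference of -15.95 percentage points had an exact two-sided permutation p of 0.0238, the smallest that 6 libraries against 3 allow. The permutation treats the 9 libraries as exchangeable, although they come in 3 groups. Its p therefore restates the lack of overlap and adds no support. Without fibronectin (Fn1), a single long and very abundant gene, the shares were 19% and 8.41%. Genes under 1000 bp went the other way, with 7.16 to 7.36% of counts in the plain controls and 12.6 to 15.9% in the others. The median log2 difference (PDS and Phen-DC3 controls minus plain controls) was 0.80 for genes up to 1000 bp, 0.04 for genes of 2000 to 3000 bp, -1.15 for those of 5000 to 10000 bp and -2.30 for longer ones. Across genes, which are not independent replicates, the rank correlation of the log2 difference with length was -0.51. What set this trend was not tested.

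**Figure D1:**
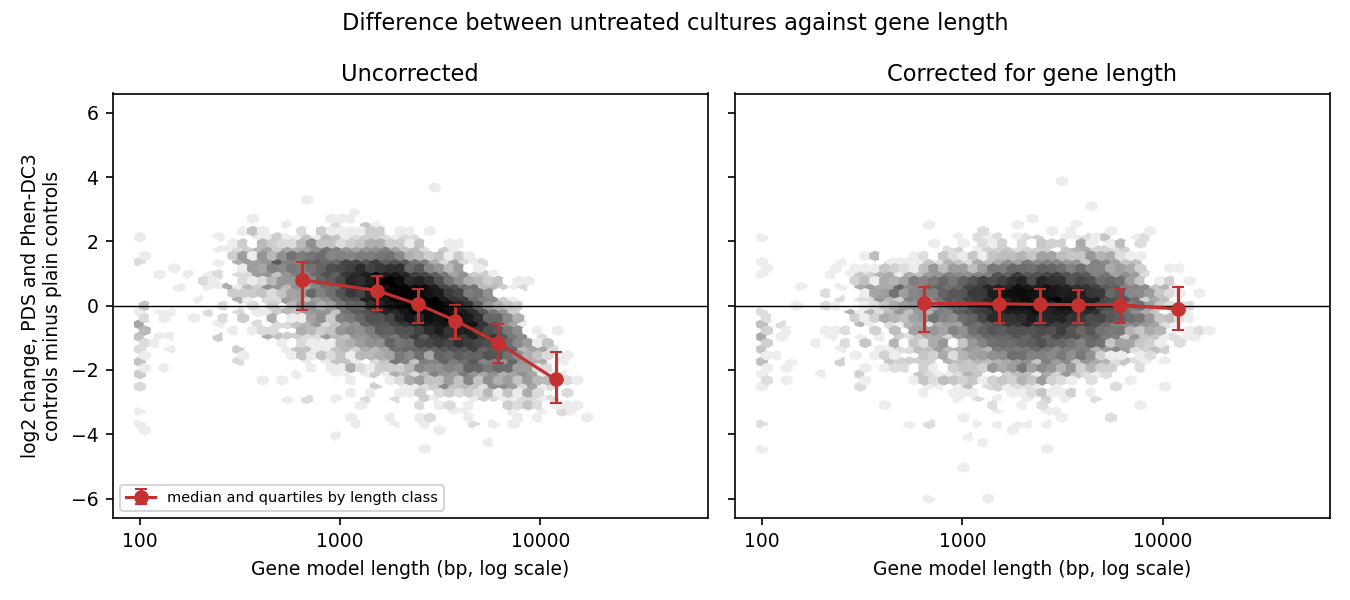
Log2 difference of each tested gene between the PDS and Phen-DC3 controls and the plain controls (y axis) against gene model length in bp (x axis, log scale), without and with correction for length, with darker hexagons for more genes and red points for the median and quartiles of 6 length classes. The medians run from 0.80 to -2.30 without the correction and stay between -0.10 and 0.07 with it.

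A second fit removed a smooth trend on log2 length from each library, and most results below are given without and with it. The correction left 4912 genes higher (35.8%) and 4492 lower (32.7%). The 2 fits called 3700 genes higher (27%) and 3625 lower (26.4%) in common. The correction turned 94 called genes from higher to lower and 541 from lower to higher, so a gene is described here as higher or lower in one state mainly where both fits called it. Counts over a gene list are to be read against these shares of all genes. In 32.4% of all genes the 6 PDS and Phen-DC3 controls all lay above the 3 plain controls, and in 34.8% all below. Genes named here were mostly picked for a small p or a large difference, so groups that do not overlap are a description of them and add no support. The correction takes away any true difference that is shared by genes of a given length, so neither fit is the right one by construction. In what follows, a log2 difference is the PDS and Phen-DC3 controls minus the plain controls, "corrected" means corrected for length, and an adjusted p is that of edgeR's quasi-likelihood test over all 13727 genes.

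The plain controls had far more mitotic transcripts. Of 32 mitosis genes tested, none was called higher in the PDS and Phen-DC3 controls and 28 were called lower, against 38.2% of all genes, and 30 were lower after correction. In bulk RNA, fewer dividing cells and less RNA per cell cannot be told apart. The list's median log2 difference was -1.39 uncorrected and -1.22 corrected, beside medians of -0.01 and 0.04 over all genes. Mki67 (ENSRNOG00000028137), the gene of the proliferation antigen Ki-67, read 29.6, 19.6 and 27.4 CPM in the PDS controls, 40.8, 45.03 and 33.6 CPM in the Phen-DC3 controls and 583, 611 and 648 CPM in the plain controls. The 6 libraries lay far below the 3 plain controls, and the log2 difference was -4.27 ± 0.12 (SE, adjusted p = 5.2e-11). Its gene model is 9880 bp long, and the corrected difference was -2.46 ± 0.10 (SE, adjusted p = 1.3e-09).

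Other cell cycle genes were lower too, whether their models were long or short. Ccna2, cyclin A2, has a model of 2363 bp, close to the length where the trend is near 0, and read 51.5, 47.4 and 56.7 CPM in the PDS controls, 53.4, 50.1 and 51.5 CPM in the Phen-DC3 controls and 180.1, 197 and 194 CPM in the plain controls. The log2 difference was -1.88 ± 0.07 (SE, adjusted p = 6.2e-11), or -1.93 corrected. Top2a, the topoisomerase that untangles replicated chromosomes, read 84.8, 72.8 and 83.2 CPM in the PDS controls, 104, 104 and 83.9 CPM in the Phen-DC3 controls and 648, 672 and 644 CPM in the plain controls. That is a log2 difference of -2.89 (-1.90 corrected). Anln, the cytokinesis scaffold anillin, differed by -2.39 (-2.02 corrected) on the log2 scale, and Cenpe, a kinetochore motor, by -4.61 (-3.19 corrected). Kif20b, a kinesin of cytokinesis, differed by -4.34 (-3.37 corrected) and was among the 12 genes with the largest corrected difference in the lower direction. Prr11, a short cell cycle gene of 1905 bp, had a log2 difference of -2.91 (-3.16 corrected). The 4 mitosis genes not called in the uncorrected fit were Birc5 (0.09 (-0.60 corrected)), Cenpa (-0.05 (-0.03 corrected)), Kif20a (-0.07 (0.11 corrected)) and Nuf2 (-0.19 (-0.44 corrected)), named after their values were seen.

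Promoter sequences of the mitosis genes are shown because their shared elements can be read directly. RefSeq promoters (GRCr8, 250 bases before to 50 after the gene start) were found for 23 of the 28 mitosis genes called lower in both fits. Letters TTTGAA, the core of the cell cycle homology region bound by the DREAM complex, were searched on both strands and stood in 17 of 23 (73.9%), against 11.4% of 9458 promoters of tested genes and 18.1% of all 27457 promoters. Letters CCAAT, the box bound by NF-Y, stood in 16 of 23 (69.6%), against 38.1% and 37.7%. Listed mitosis genes that were not called lower were not searched as a set. A match describes these letters and not a bound site. Capitals below mark both motifs on either strand (TTCAAA and ATTGG are the reverse complements), and a CCAAT match can overlap a TTTGAA match, as in the longest capital run of Mki67.
Mki67 (chr1:199952544-199952843, minus strand): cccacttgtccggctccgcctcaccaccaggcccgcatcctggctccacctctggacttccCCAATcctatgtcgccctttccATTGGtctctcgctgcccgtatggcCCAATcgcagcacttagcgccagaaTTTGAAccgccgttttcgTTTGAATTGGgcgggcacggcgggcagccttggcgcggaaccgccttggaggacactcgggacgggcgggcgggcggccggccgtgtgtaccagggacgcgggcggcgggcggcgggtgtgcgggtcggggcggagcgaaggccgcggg
Top2a (chr10:84473044-84473343, minus strand): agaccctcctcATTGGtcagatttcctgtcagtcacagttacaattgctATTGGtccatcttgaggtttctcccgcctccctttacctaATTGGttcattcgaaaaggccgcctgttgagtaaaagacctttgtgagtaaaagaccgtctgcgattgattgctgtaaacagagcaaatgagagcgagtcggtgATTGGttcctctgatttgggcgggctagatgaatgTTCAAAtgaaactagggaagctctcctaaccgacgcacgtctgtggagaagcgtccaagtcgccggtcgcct
Anln (chr8:29197464-29197763, minus strand): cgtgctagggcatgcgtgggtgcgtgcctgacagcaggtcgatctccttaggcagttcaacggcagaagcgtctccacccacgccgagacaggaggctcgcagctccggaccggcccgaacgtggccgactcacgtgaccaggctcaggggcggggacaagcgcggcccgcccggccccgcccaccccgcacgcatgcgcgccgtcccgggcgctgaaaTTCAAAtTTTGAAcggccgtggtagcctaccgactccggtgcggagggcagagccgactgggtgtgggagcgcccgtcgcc

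DNA replication genes, which act in S phase, had a smaller median difference. Of 44 tested, 29 were lower and 4 higher, and 29 and 5 after correction, against 38.2% lower and 36.7% higher of all genes. Both fits called 22 of the 44 lower, against 26.4% of all genes. The median log2 difference was -0.48 in each fit. Uhrf1, which reads half-methylated DNA behind the fork, read 45.4, 46.1 and 44.96 CPM in the PDS controls, 38.01, 32.2 and 33.9 CPM in the Phen-DC3 controls and 104, 125 and 115 CPM in the plain controls. The 6 libraries were all lower, and the log2 difference was -1.53 ± 0.08 (SE, adjusted p = 7.4e-10), or -1.03 corrected. Cdt1, a licensing factor with a model of 2239 bp, differed by -1.27 (-1.37 corrected), and Pole, the catalytic subunit of polymerase epsilon, by -2.52 (-1.19 corrected). Among 26 p53 targets and CDK inhibitors, 11 were higher (42.3%) and 9 lower (34.6%), close to the shares of all genes, and after correction 9 were higher and 10 lower. Of the members with the smallest p, the death receptor gene Fas differed by 1.01 (1.05 corrected), Ei24 by 0.74 (0.53 corrected), Mdm2, the p53 ubiquitin ligase, by -0.71 (-0.53 corrected) and Btg2, an antiproliferative factor, by -0.61 (-0.57 corrected). Cdkn1a, the p21 inhibitor, had a log2 difference of 0.29 ± 0.06 (SE, adjusted p = 0.001), and after correction the call was lost, at 0.06 ± 0.06 (SE, adjusted p = 0.39).

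Genes of the hypoxia response and glycolysis went the other way. Of 38 tested, 27 were higher and 7 lower in the PDS and Phen-DC3 controls, against 36.7% and 38.2% of all genes, and 28 and 3 after correction. The 27 higher genes were called in both fits. The list's median log2 difference was 1.05, or 0.76 corrected. Ca9 (ENSRNOG00000017073), the surface carbonic anhydrase widely used as a hypoxia marker, read 737, 779 and 726 CPM in the PDS controls, 694, 659 and 641 CPM in the Phen-DC3 controls and 157, 173 and 168 CPM in the plain controls. The lowest of the 6 was over the highest plain control with a wide gap, and the log2 difference was 2.09 ± 0.07 (SE, adjusted p = 2.7e-11), or 1.91 corrected. Ldha, the lactate dehydrogenase subunit that makes lactate, read 4181, 4416 and 4552 CPM in the PDS controls, 3667, 3851 and 4149 CPM in the Phen-DC3 controls and 1304, 1255 and 1236 CPM in the plain controls. All 6 were again above the plain controls, with a log2 difference of 1.71 ± 0.07 (SE, adjusted p = 1.1e-10), or 1.32 corrected.

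Further genes of the pathway, and some genes named from other lists, were higher too. Bnip3, a mitophagy receptor, read 288, 253 and 296 CPM in the PDS controls, 345, 336 and 290.4 CPM in the Phen-DC3 controls and 92.5, 82.5 and 86.5 CPM in the plain controls, and differed by 1.79 (1.41 corrected) on the log2 scale. Pkm, pyruvate kinase, differed by 1.29 (1.15 corrected), Pgk1 by 1.52 (1.18 corrected), Egln3, an oxygen-sensing prolyl hydroxylase, by 1.72 (1.86 corrected), and the lactate exporter Slc16a3 by 1.38 (1.24 corrected). Cox4i2, the complex IV subunit isoform used at low oxygen, was named from the oxidative phosphorylation list. It read 119.5, 136 and 122 CPM in the PDS controls, 125, 113 and 105 CPM in the Phen-DC3 controls and 17.8, 17.5 and 17.7 CPM in the plain controls, with a log2 difference of 2.77 (2.16 corrected). Angptl4, a lipoprotein lipase inhibitor that responds to hypoxia and fasting, was named from the fatty acid and the glucocorticoid lists. It read 377, 403 and 379 CPM in the PDS controls, 332, 348 and 362 CPM in the Phen-DC3 controls and 56.1, 49.4 and 46.1 CPM in the plain controls. Its log2 difference was 2.86 ± 0.08 (SE, adjusted p = 1.2e-11), or 2.60 corrected. Tpi1 differed by 3.0 (2.55 corrected), an uncertain value because reads that its near-identical copies share could be split between them. Not all members of the hypoxia and glycolysis list followed. Vegfa, the angiogenic factor, had a log2 difference of -0.94 (-0.54 corrected), in the lower direction in both fits, as did Epas1 at -1.30 (-0.5 corrected) and Hk1 at -0.64 (-0.55 corrected). The glucose transporter gene Slc2a1 was not called in either fit at 0.08 (0.13 corrected).

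RefSeq promoters were found for 22 of the 27 hypoxia and glycolysis genes called higher in both fits. Letters ACGTG, the core of the hypoxia response element, were searched on both strands, where the reverse complement CACGT overlaps it in the palindrome CACGTG. They stood in 13 of 22 (59.1%), against 25.8% of the 9458 promoters of tested genes and 19.7% of all promoters. The same letters stood in 9 of 23 promoters (39.1%) of the mitosis genes called lower in both fits. Listed hypoxia genes that were not called higher were not searched as a set. A trait of the list thus cannot be told apart from one of its called members. A match describes letters and not a bound site. Capitals mark ACGTG on either strand in 2 genes described above. The promoter of Pkm held no match in this window.
Ldha (chr1:106507842-106508141, plus strand): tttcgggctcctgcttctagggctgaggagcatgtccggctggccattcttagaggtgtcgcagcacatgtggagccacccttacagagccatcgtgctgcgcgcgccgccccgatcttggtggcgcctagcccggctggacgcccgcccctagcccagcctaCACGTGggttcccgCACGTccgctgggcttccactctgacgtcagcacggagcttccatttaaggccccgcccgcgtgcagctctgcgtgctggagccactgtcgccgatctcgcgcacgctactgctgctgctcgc
Bnip3 (chr1:203154913-203155212, minus strand): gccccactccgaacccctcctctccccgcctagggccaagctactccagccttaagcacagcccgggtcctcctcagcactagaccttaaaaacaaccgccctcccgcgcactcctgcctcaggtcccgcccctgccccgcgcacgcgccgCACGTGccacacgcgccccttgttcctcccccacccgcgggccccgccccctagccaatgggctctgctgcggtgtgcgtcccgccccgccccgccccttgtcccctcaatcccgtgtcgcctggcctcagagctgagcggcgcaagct

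**Figure D2:**
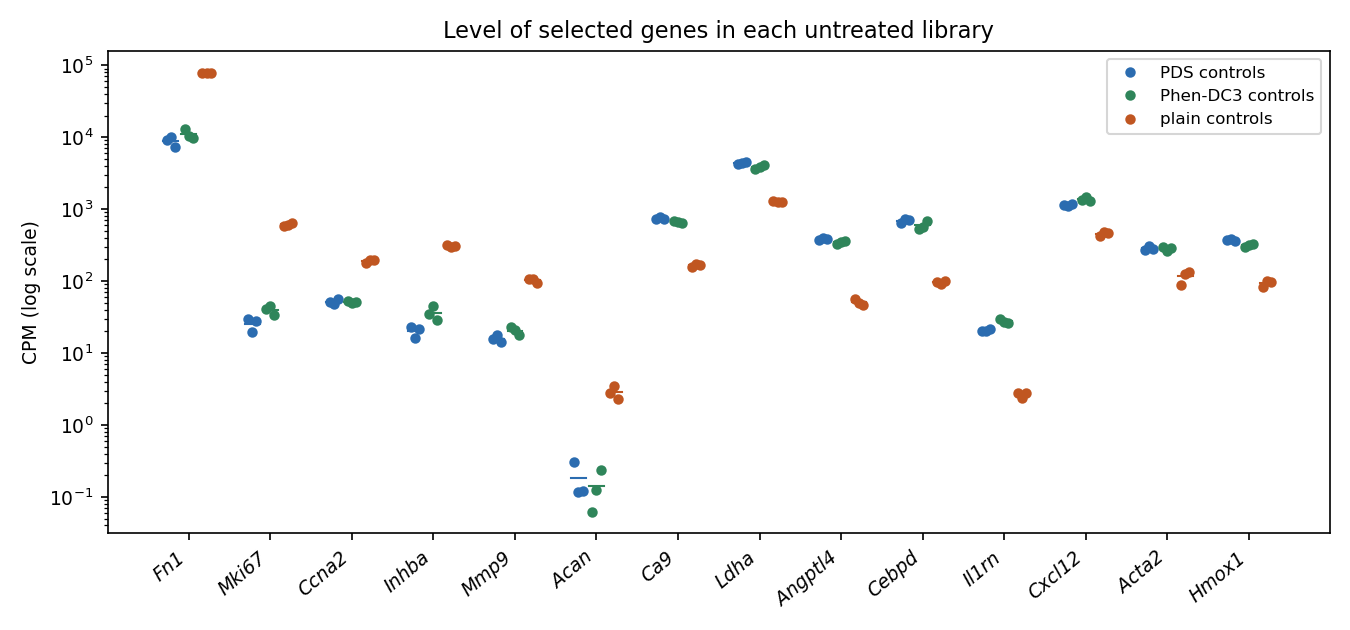
CPM on a log axis of 14 genes in each of the 9 untreated libraries (points; short lines are group means of 3 libraries), PDS controls in blue, Phen-DC3 controls in green and plain controls in orange. For each gene shown the 6 blue and green points lie on 1 side of the 3 orange points, as they do above in 32.4% and below in 34.8% of all genes tested, and the genes shown were chosen among those that differed.

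Genes of protein synthesis and energy conversion were higher in the PDS and Phen-DC3 controls, and their transcripts are short. Of all genes up to 1000 bp, 56.5% were higher and 15.9% lower, and 31.0% and 29.8% after correction. Of those of 1000 to 2000 bp, a class that holds the proteasome list's median of 1468 bp, 56.3% were higher, and 37.0% after correction. Of 90 cytosolic ribosomal protein genes tested, with a median model length of 633 bp, 85 were higher and none lower, and 67 were higher and 2 lower after correction. The median log2 difference was 1.26, or 0.51 corrected. Rplp0, a protein of the ribosomal stalk, read 3778, 4184 and 4142 CPM in the PDS controls, 2917, 3270 and 3372 CPM in the Phen-DC3 controls and 1402, 1412 and 1380 CPM in the plain controls. All 6 were higher, with a log2 difference of 1.36 (0.76 corrected). Of 77 nuclear oxidative phosphorylation genes, median length 705 bp, 75 were higher and none lower, and 67 and none after correction, with medians of 1.32 and 0.63. Ndufb8, of complex I, had a log2 difference of 1.58 (0.83 corrected), and Cox4i1, the common counterpart of Cox4i2, of 1.45 (0.71 corrected). Of 36 proteasome genes, 31 were higher, and 26 with 1 lower after correction. Values of ribosomal genes with near-identical copies are uncertain, and Rpl23a and Rpl10a were listed at 0 in all 9 libraries.

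The 13 mRNAs encoded by mitochondrial DNA did not share this direction. Uncorrected, 9 were lower and 1, Mt-co1, was higher, with a median log2 difference of -0.83, and after correction 11 were lower and none higher, with a median of -1.49. These models are short, so the length trend alone would place them higher. The summed level of the 13 mRNAs overlapped between the states. It was 20080 to 25860 CPM in the PDS controls and 23980 to 34840 CPM in the Phen-DC3 controls. In the plain controls it was 27310 to 32730 CPM. Mt-nd5, of complex I, read 607, 494 and 602 CPM in the PDS controls, 998, 952 and 558 CPM in the Phen-DC3 controls and 1977, 1603 and 1753 CPM in the plain controls. The log2 difference was -1.37 ± 0.18 (SE, adjusted p = 0.00012), or -1.65 corrected. Phen-DC3 control 3 and the PDS controls were lower than the other 2 Phen-DC3 controls, but none of the 6 reached the plain controls. Mt-nd4l differed by -1.80 (-2.58 corrected) and Mt-nd6, the 1 gene of the list on the light strand, by -1.71 (-2.52 corrected). Without strand information, reads of Mt-nd6 and of the opposite strand cannot be told apart.

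Extracellular matrix genes were mostly lower in the PDS and Phen-DC3 controls, and their length matters for the count. Fn1 (ENSRNOG00000014288), fibronectin, is 8406 bp long and read 9023, 10170 and 7338 CPM in the PDS controls, 12990, 10370 and 9734 CPM in the Phen-DC3 controls and 77780, 78770 and 78760 CPM in the plain controls. It alone took 7.70 to 7.77% of all counts in the plain controls and 0.719 to 1.32% in the others. All 6 were far lower, the level was 7.94-fold lower, and the log2 difference was -2.99 ± 0.10 (SE, adjusted p = 1.1e-10). Corrected for length it was -1.42 ± 0.08 (SE, adjusted p = 1.7e-09), or 2.68-fold lower. Of 23 fibrillar and elastic matrix genes, 16 were lower (69.57%) and 5 higher (21.74%), against 38.2% and 36.7% of all genes, with a median of -0.76. After correction 12 were lower (52.17%) and 5 higher (21.74%), against 32.7% and 35.8%, with a median of -0.21. Col1a1, of type I collagen, read 1464, 1523 and 1095 CPM in the PDS controls, 1369, 1407 and 1478 CPM in the Phen-DC3 controls and 4269, 5421 and 4953 CPM in the plain controls, with a log2 difference of -1.81 (-0.76 corrected). Fbn1, the microfibril protein fibrillin 1, had one of -2.94 (-1.13 corrected) and Col5a1 of -2.05 (-0.84 corrected). Sparc, a collagen-binding glycoprotein, was the highest of the 5 called higher, at 8240 and 7628 CPM in the PDS and Phen-DC3 controls against 3513 CPM in the plain controls and a log2 difference of 1.17 (1.0 corrected).

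Cartilage-type matrix genes summed to 754 to 1103 CPM in the 6 libraries and 2264 to 2368 CPM in the plain controls. Most of the sum was Col11a1, of type XI collagen, with 537 and 621 CPM in the PDS and Phen-DC3 controls against 1323 CPM in the plain controls, and Vcan, the large proteoglycan versican, with 119 and 189.9 CPM in the PDS and Phen-DC3 controls against 776 CPM in the plain controls. Of 24 genes, 16 passed the filter, of which 8 were lower (50%) and 2 higher (12.5%), against 38.2% and 36.7% of all genes. After correction 5 were lower and 5 higher, 31.25% each way and near the 32.7% and 35.8% of all genes. Col11a1, named after its values were seen, had a log2 difference of -1.20 that turned to 0.24 on correction. Acan (ENSRNOG00000028992), the core protein of aggrecan, read 0.303, 0.118 and 0.120 CPM in the PDS controls, 0.0625, 0.123 and 0.234 CPM in the Phen-DC3 controls and 2.81, 3.46 and 2.32 CPM in the plain controls. This was a log2 difference of -4.10 ± 0.36 (SE, adjusted p = 1.7e-07), or -2.83 corrected, and each of the 6 values rests on few reads. Sox9, the master factor of cartilage genes, read 6.12, 8.04 and 6.07 CPM in the PDS controls, 6.19, 7.45 and 7.09 CPM in the Phen-DC3 controls and 13.3, 15.7 and 16.1 CPM in the plain controls. All 6 were lower, at a log2 difference of -1.14 (-0.78 corrected). Prg4, the lubricin of cartilage surfaces, read 2.24, 2.01 and 1.26 CPM in the PDS controls, 2.19, 3.14 and 2.52 CPM in the Phen-DC3 controls and 24.5, 32.9 and 32.4 CPM in the plain controls, with a log2 difference of -3.77 ± 0.16 (SE, adjusted p = 2.2e-10), or -3.49 corrected. Col2a1, type II collagen, read 17.3, 18.5 and 16.4 CPM in the PDS controls, 19.4, 20.6 and 19.4 CPM in the Phen-DC3 controls and 16.01, 22.4 and 22.8 CPM in the plain controls. These values overlapped, and the log2 difference of -0.14 ± 0.11 (SE, adjusted p = 0.29) was not called, but with the correction for its 4538 bp model it changed sign to 0.57 ± 0.11 (SE, adjusted p = 0.00047). Vcan, with a model of 11553 bp, had a log2 difference of -2.37 (-0.33 corrected), so most of it went with the length trend.

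Enzymes that cut matrix were mostly lower, and the 3 tissue inhibitors of metalloproteinases tested were higher. The list held 24 tested genes, among them inhibitors such as Timp1, so its counts are not of enzymes alone. In it 15 were lower (62.5%) and 7 higher (29.17%), against 38.2% and 36.7% of all genes. After correction 13 were lower (54.17%) and 8 higher (33.33%), against 32.7% and 35.8%. Mmp9, a gelatinase, read 15.6, 17.9 and 14.1 CPM in the PDS controls, 22.6, 20.9 and 17.98 CPM in the Phen-DC3 controls and 105, 107 and 93.95 CPM in the plain controls. The states were far apart, with a log2 difference of -2.5 ± 0.09 (SE, adjusted p = 6.2e-11), or -2.24 corrected. Mmp3, stromelysin 1, read 2562, 2705 and 2712 CPM in the PDS controls, 3195, 3045 and 2776 CPM in the Phen-DC3 controls and 5267, 4467 and 4716 CPM in the plain controls, with a log2 difference of -0.77 (-1.11 corrected), and Mmp13, a collagenase, one of -1.15 (-1.10 corrected). The aggrecanase Adamts5 differed by -0.56 (-0.29 corrected). Among inhibitors, Timp1 read 1473, 1532 and 1683 CPM in the PDS controls, 1293, 1414 and 1436 CPM in the Phen-DC3 controls and 506, 541 and 575 CPM in the plain controls, and differed by 1.44 (0.71 corrected). Timp2 (0.89 (0.54 corrected)) and Timp3 (0.64 (0.32 corrected)), named after their values were seen, also had positive log2 differences in both fits.

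Inflammatory genes had members in both directions. Of 33 tested, 13 were higher and 13 lower, 39.4% each way and close to the 36.7% and 38.2% of all genes. After correction 8 were higher and 14 lower, so the balance moved with the length trend. Il1rn, the natural antagonist of the interleukin 1 receptor, read 20.1, 20.4 and 21.5 CPM in the PDS controls, 30.1, 27.4 and 26.3 CPM in the Phen-DC3 controls and 2.75, 2.39 and 2.76 CPM in the plain controls. Its log2 difference was 3.19 ± 0.12 (SE, adjusted p = 6.7e-11), or 3.0 corrected. Il1a, an agonist of the same receptor, had a log2 difference of -2.83 (-3.35 corrected) in the other direction, with 0.360 and 0.781 CPM in the PDS and Phen-DC3 controls against 3.82 CPM in the plain controls. Cxcl12, a homing chemokine with a long model of 5423 bp, read 1139, 1109 and 1164 CPM in the PDS controls, 1332, 1465 and 1294 CPM in the Phen-DC3 controls and 425, 482 and 466 CPM in the plain controls. It ran against the length trend, with a log2 difference of 1.45 ± 0.07 (SE, adjusted p = 5.6e-10) that grew to 2.40 on correction. Lcn2, the siderophore-binding lipocalin 2, differed by 1.69 (1.01 corrected), and Sod2, mitochondrial superoxide dismutase, by 1.20 (1.02 corrected). Ptgs2, inducible cyclooxygenase, differed by -2.39 (-1.74 corrected) and Tnfaip3, the NF-kappaB feedback inhibitor A20, by -1.69 (-1.70 corrected). Il6 was not called at -0.18, and was lower at -0.79 after correction.

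Of 34 interferon-response genes 12 were higher and 12 lower, 35.3% each way and again close to the shares of all genes, and 15 and 12 after correction. The members named here lay at both ends. Ifitm3, a membrane protein that blocks virus entry, read 249, 256 and 278 CPM in the PDS controls, 297, 279.9 and 263 CPM in the Phen-DC3 controls and 73.8, 72.7 and 72.8 CPM in the plain controls, with a log2 difference of 1.89 (1.15 corrected). The chemokine gene Cxcl10 read 35.2, 39.8 and 58.6 CPM in the PDS controls, 47.6, 23.8 and 43.1 CPM in the Phen-DC3 controls and 146, 199 and 195 CPM in the plain controls, with a log2 difference of -2.13 (-2.71 corrected). Herc6 differed by -2.41 (-2.0 corrected), Ifit3 by -1.70 (-1.89 corrected) and Rsad2 by -1.66 (-1.22 corrected). Psmb8, an immunoproteasome subunit, read 20.6, 19.7 and 16.9 CPM in the PDS controls, 16.8, 18.4 and 17.6 CPM in the Phen-DC3 controls and 4.56, 5.97 and 5.01 CPM in the plain controls, with a log2 difference of 1.82 (1.64 corrected). Psmb9 differed by 1.43 (1.01 corrected). Of 15 rat MHC (RT1) genes, 7 were higher and 4 lower, and 7 and 5 after correction. RT1-S3 differed by 1.65 (1.34 corrected), RT1-A2 by 1.12 (0.76 corrected), RT1-A1 by 0.95 (1.06 corrected) and RT1-M3-1 by 1.26 (0.99 corrected). These genes have near-identical copies, and their separate values are uncertain.

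Contractile and SRF-type genes had members in both directions. Of 22 tested, 11 were higher (50%) and 8 lower (36.4%), against 36.7% and 38.2% of all genes, and 12 and 8 after correction. The summed level of the list was 6258 to 6631 CPM in the PDS controls and 5849 to 6339 CPM in the Phen-DC3 controls. It was 6660 to 8032 CPM in the plain controls. Acta2, smooth muscle actin and a marker of myofibroblasts, read 269.5, 305 and 278 CPM in the PDS controls, 302, 259 and 289 CPM in the Phen-DC3 controls and 87.7, 126 and 133 CPM in the plain controls. All 6 were above the plain controls, by a log2 difference of 1.29 ± 0.12 (SE, adjusted p = 9.4e-07), or 0.82 corrected. Tagln, an actin-binding protein, differed by 1.49 (0.96 corrected), Cnn1 by 1.65 (1.22 corrected) and Ankrd1, a target of YAP and SRF, by 1.81 (1.5 corrected). Csrp1, a LIM domain protein, differed by 0.95 (0.63 corrected) and Vcl, the adhesion protein vinculin, by -1.43 (-0.47 corrected). Myocd, the coactivator of smooth muscle genes, was lower too, at 2.24, 3.31 and 2.59 CPM in the PDS controls, 4.63, 2.22 and 2.93 CPM in the Phen-DC3 controls and 17.8, 23.2 and 21.9 CPM in the plain controls. All 6 were below the plain controls, by a log2 difference of -2.81 (-1.96 corrected), while Acta2 and Tagln, which it can activate, were above them. Ccn1 (-0.52 (-0.73 corrected)) and Ccn2 (-0.78 (-0.68 corrected)), secreted targets of YAP named after their values were seen, were lower as well.

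Secreted signals and their receptors gave some of the largest differences. Inhba, the activin A subunit, read 22.7, 16.02 and 21.8 CPM in the PDS controls, 34.7, 45.6 and 28.8 CPM in the Phen-DC3 controls and 321, 301 and 311 CPM in the plain controls. The plain controls were 11.5-fold higher on average, with a log2 difference of -3.52 ± 0.13 (SE, adjusted p = 1.2e-09) that was nearly the same corrected, at -3.49. Of 30 TGF-beta and BMP genes, 17 were lower (56.7%) and 7 higher (23.3%), against 38.2% and 36.7% of all genes. After correction 13 were lower (43.3%) and 8 higher (26.7%), against 32.7% and 35.8%. Bmpr2, the type 2 BMP receptor, differed by -2.24 (-1.73 corrected). Of 19 Wnt genes, 8 were higher (42.11%) and 4 lower (21.05%), and 9 (47.37%) and 4 (21.05%) after correction. Wnt4, a ligand, read 16.5, 14.5 and 12.7 CPM in the PDS controls, 12.5, 16.3 and 15.9 CPM in the Phen-DC3 controls and 5.13, 4.54 and 4.39 CPM in the plain controls, with a log2 difference of 1.65 (2.71 corrected), and Rspo1, which amplifies Wnt signalling, differed by 1.49 (1.15 corrected). Sfrp4 and Dkk3, 2 secreted Wnt modulators, differed by 1.04 (1.76 corrected) and 0.72 (1.56 corrected). Wnt4, Sfrp4 and Dkk3 have long models, of 5823, 4591 and 5010 bp, and ran against the length trend.

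Of 13 genes of the IGF system, 6 were higher (46.15%) and 7 lower (53.85%), against 36.7% and 38.2% of all genes. After correction 5 were higher (38.46%) and 6 lower (46.15%), against 35.8% and 32.7%. The receptor gene Igf1r read 43.4, 44.8 and 33.2 CPM in the PDS controls, 50.1, 43.9 and 40.1 CPM in the Phen-DC3 controls and 176, 187 and 172 CPM in the plain controls, and its log2 difference was -2.07 (-1.49 corrected). Insr differed by -2.04 (-0.73 corrected), Igf2r by -2.51 (-0.87 corrected) and the adaptor Irs2 by -1.57 (-0.36 corrected). The IGF-binding protein genes, named after their values were seen, were not alike. Igfbp5 was lower, as the receptors were, at -2.5 (-1.46 corrected). Igfbp2 (2.57 (2.05 corrected)), Igfbp3 (1.24 (1.21 corrected)), Igfbp4 (1.15 (1.03 corrected)) and Igfbp6 (1.07 (0.46 corrected)) were higher in both fits, and the call of Igfbp7 (0.62 (0.02 corrected)) was lost on correction. Apln, the ligand apelin, read 25.2, 26.4 and 23.6 CPM in the PDS controls, 21.3, 30.1 and 24.7 CPM in the Phen-DC3 controls and 1.56, 1.55 and 2.63 CPM in the plain controls, a log2 difference of 3.72 ± 0.19 (SE, adjusted p = 7.5e-10), or 3.95 corrected. Reln, the secreted glycoprotein reelin with a model of 11096 bp, read 4.18, 4.97 and 3.13 CPM in the PDS controls, 3.31, 3.20 and 3.75 CPM in the Phen-DC3 controls and 147, 122 and 135 CPM in the plain controls. It gave the largest negative log2 difference among the genes chosen by size, -5.17 ± 0.11 (SE, adjusted p = 3.3e-12), and -3.18 corrected.

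Other genes chosen by the size of the corrected difference were less easily grouped. In the higher direction they included Tril, an accessory protein of Toll-like receptor 4, at 1.91 (2.71 corrected), the serotonin transporter gene Slc6a4 at 2.21 (2.52 corrected), the membrane raft protein gene Flot1 at 2.33 (2.49 corrected) and Lgals9, galectin 9, at 2.27 (2.39 corrected). In the lower direction Susd5, with a short model of 1866 bp, read 2.61, 2.84 and 3.67 CPM in the PDS controls, 2.38, 2.83 and 3.10 CPM in the Phen-DC3 controls and 34.6, 34.4 and 35.2 CPM in the plain controls. Its log2 difference of -3.58 ± 0.12 (SE, adjusted p = 2.7e-11) ran against the length trend and was -3.84 corrected. Phip, a chromatin reader, differed by -4.39 (-3.48 corrected) and Lpp, a focal adhesion protein, by -2.93 (-3.04 corrected). Of 3 gene models without an assigned name in this group, 2 were higher and 1 was lower, and all 3 varied widely between the Phen-DC3 controls.

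Each of 4 lists of stress genes had more members higher than lower. Of all genes, 36.7% were higher and 38.2% lower, and 35.8% and 32.7% after correction. Of genes of 1000 to 2000 bp, a class that holds the NRF2 list's median of 1460 bp, 56.3% were higher, and 37.0% after correction. Of 28 NRF2 and oxidative stress genes, 20 were higher (71.4%, against 36.7% of all genes) and 7 lower, and after correction 13 (46.4%, against 35.8%) and 6. Hmox1, heme oxygenase 1, read 373, 384 and 355 CPM in the PDS controls, 299.9, 316 and 329 CPM in the Phen-DC3 controls and 81.6, 101 and 98.5 CPM in the plain controls. Its log2 difference was 1.87 ± 0.08 (SE, adjusted p = 2.5e-10), or 1.47 corrected. Txnrd1, thioredoxin reductase, was opposite at -1.01 (-0.64 corrected). Of 30 genes of amino acid metabolism and the integrated stress response, 15 were higher (50%) and 3 lower (10%). After correction 17 (56.7%) were higher and 4 (13.3%) lower. Trib3, a target of ATF4 and CHOP, read 20.7, 23.7 and 19.96 CPM in the PDS controls, 16.3, 18.4 and 20.2 CPM in the Phen-DC3 controls and 4.06, 5.07 and 4.01 CPM in the plain controls, with a log2 difference of 2.17 (1.94 corrected). Slc7a5 and Slc7a1, amino acid carriers, were lower at -1.06 (-0.69 corrected) and -1.85 (-0.63 corrected). Of 21 cytosolic heat shock genes, 11 were higher (52.4%) and 5 lower (23.8%), and 11 and 4 after correction. The small heat shock protein genes Cryab (2.0 (1.47 corrected)) and Hspb1 (1.60 (0.91 corrected)) had positive log2 differences, and Hspa4l (-1.71 (-0.92 corrected)) a negative one. Of 24 ER chaperone and unfolded protein response genes, 15 were higher (62.5%) and 8 lower (33.3%). After correction 12 (50%) were higher and 4 (16.7%) lower.

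Glucocorticoid and fasting-type genes, clock genes and immediate early genes had members at both ends. Cebpd, a transcription factor that responds to cytokines and glucocorticoids, read 649, 726 and 707 CPM in the PDS controls, 536, 564 and 685 CPM in the Phen-DC3 controls and 98.03, 89.98 and 98.6 CPM in the plain controls. Its log2 difference was 2.75 ± 0.09 (SE, adjusted p = 3.5e-11), or 2.17 corrected. Of its 18-gene list 8 were higher (44.44%) and 7 lower (38.89%), and 9 (50%) and 5 (27.78%) after correction, with Irs2 at -1.57 (-0.36 corrected) and Foxo1 at -1.63 (-1.59 corrected). Dbp, an output gene of the clock, read 86.4, 84.5 and 85.1 CPM in the PDS controls, 46.2, 76.5 and 83.9 CPM in the Phen-DC3 controls and 13, 18.4 and 16.7 CPM in the plain controls, and differed by 2.26 (1.92 corrected) on the log2 scale. Arntl and Npas2, which encode activators of the clock, were lower at -0.92 (-0.72 corrected) and -2.38 (-1.76 corrected). Of 26 immediate early genes, 13 were lower (50%) and 6 higher (23.08%), against 38.2% and 36.7% of all genes. After correction 13 were lower (50%) and 5 higher (19.23%), against 32.7% and 35.8%. Jun (-0.90 (-0.66 corrected)), Fosl1 (-0.78 (-1.13 corrected)) and Myc (-0.88 (-0.79 corrected)) were among the lower. Sampling times are not given in the labels.

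Lipid genes changed their balance with the correction. Of 24 cholesterol synthesis genes, 13 were lower (54.17%) and 6 higher (25%) uncorrected, against 38.2% and 36.7% of all genes. Corrected, 7 were lower (29.17%) and 11 higher (45.83%), against 32.7% and 35.8%. Fasn, fatty acid synthase, with a model of 9139 bp, had a log2 difference of -2.65 that shrank to -0.95. Dgat2, which makes triglyceride, was higher at 1.46 (1.72 corrected). Positional HOX genes, which reflect the body level a cell came from, had members in both directions. Of 30 tested, 13 were higher (43.3%) and 10 lower (33.3%), near the shares of all genes, and 7 and 13 after correction. Hoxb5 read 3.27, 2.01 and 2.59 CPM in the PDS controls, 2.69, 3.08 and 3.05 CPM in the Phen-DC3 controls and 10.2, 14.6 and 12.8 CPM in the plain controls, a log2 difference of -2.17 (-2.58 corrected). Hoxc5 differed by -2.17 (-2.06 corrected), while Hoxc12 differed by 1.45 (0.75 corrected). Of 52 genes in this list 12 were at 0 in all 9 libraries, 8 of them of the HOXA cluster.

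**Figure D3:**
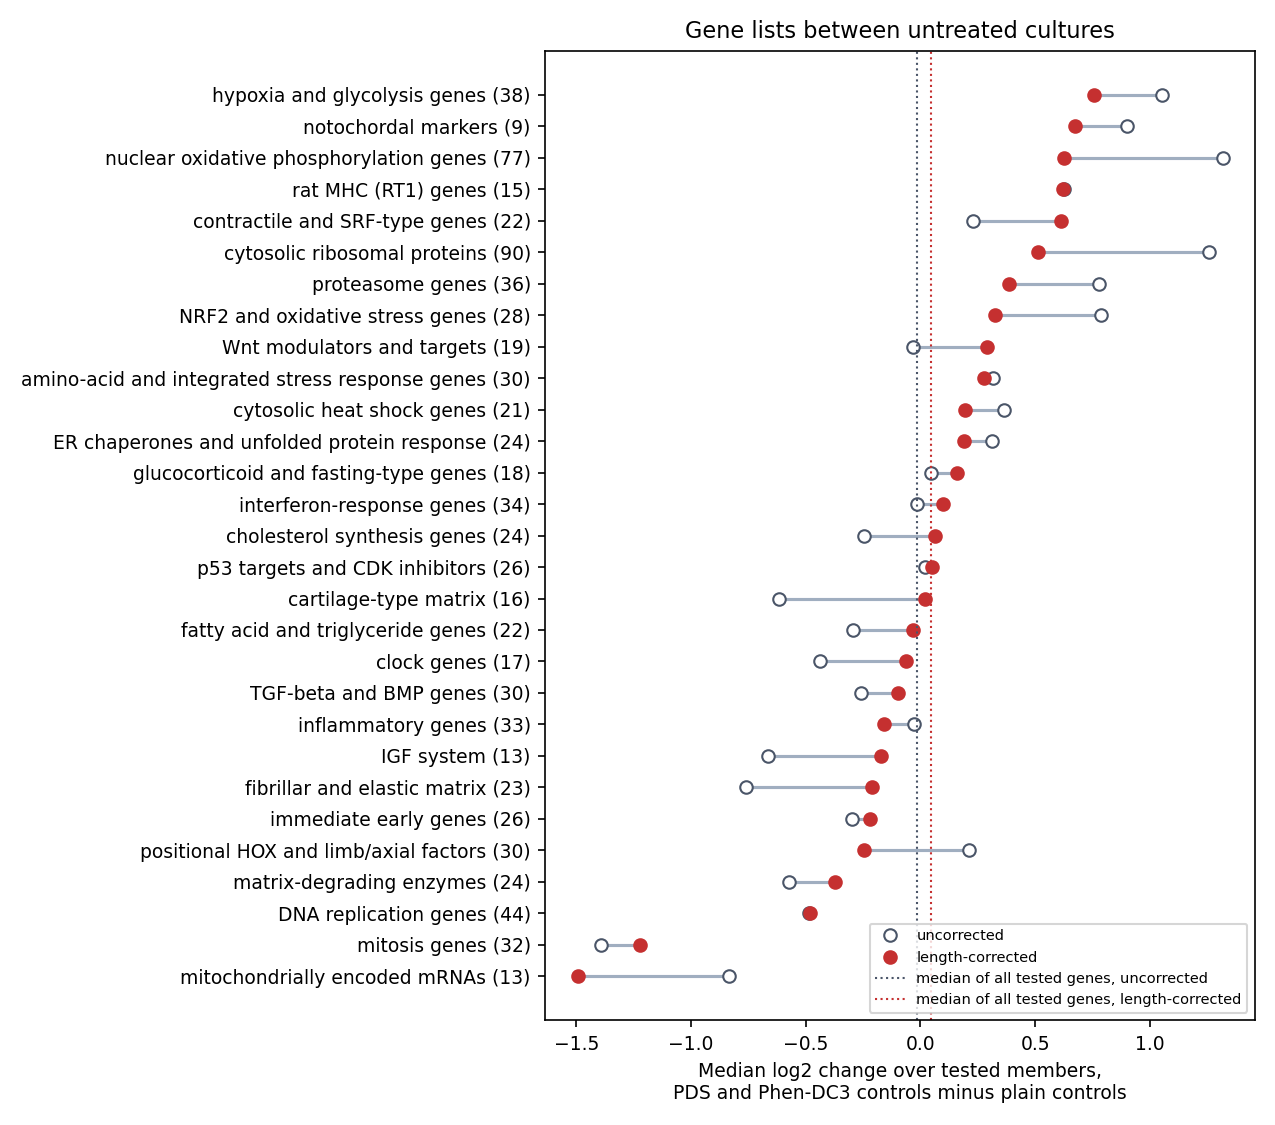
Median log2 difference over the tested members of each list with 9 or more tested genes (x axis), PDS and Phen-DC3 controls minus plain controls, uncorrected (open circles) and corrected for length (filled circles), with the number of members in brackets and dotted lines for the medians of all tested genes. Mitosis genes lie lower in both fits (-1.39 and -1.22) and hypoxia and glycolysis genes higher (1.05 and 0.76).

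Other cell type markers moved in part with these groups, and their part in the results was not tested. Their lists are small. Beside their counts stand 36.7% higher and 38.2% lower of all genes, and 35.8% and 32.7% after correction. The summed level of pericyte and smooth muscle markers was 174 to 208 CPM in the 6 libraries and 399 to 438 CPM in the plain controls, with Pdgfrb at -1.46 (-0.44 corrected) and Cspg4 at -2.23 (-0.72 corrected) on the log2 scale. Of the 8 tested 5 were lower and 1 higher, and 3 and 2 after correction. The 1 higher in both fits was Cnn1, given above. Osteoblast and mineralization markers summed to 3266 to 5021 CPM against 5988 to 8192 CPM, nearly all of it Spp1, osteopontin, at -0.78 (-1.20 corrected). The summed level of annulus and tendon-type fibroblast markers, 326 to 363 CPM in the 6 libraries, overlapped the plain controls at 336 to 348 CPM. Of the 8 tested 3 were higher and 4 lower, and 4 and 1 after correction. The tendon transcription factor genes Scx and Mkx went opposite ways, at 1.0 (0.41 corrected) and -0.33 (-0.83 corrected), and Mkx overlapped between the states. Notochordal markers summed to 588 to 1065 CPM against 408 to 512 CPM, with Lgals3, which many cell types express, at 581 and 405 CPM in the PDS and Phen-DC3 controls against 175 CPM in the plain controls, and Cd24 differed by 1.49 (1.21 corrected) on the log2 scale. Of the 9 tested 6 were higher and 2 lower in each fit, and Cd55 was lower in both at -1.24 (-1.0 corrected). Neuronal and glial markers summed to 148 to 174 CPM against 240 to 254 CPM, with Ncam1 lower at -1.51 (-0.84 corrected) and S100b higher at 1.21 (0.78 corrected), and of the 6 tested 4 were higher and 2 lower in each fit. Endothelial markers summed to 32.0 to 42.3 CPM against 27.6 to 31.4 CPM. The higher sum came from Egfl7, with 28.6 and 21.5 CPM in the PDS and Phen-DC3 controls against 9.27 CPM in the plain controls. Of the 3 tested 2 were lower and 1 higher, and 1 and 2 after correction, and Tek had 0 to 3 counts in the 6 libraries and 14 to 20 in the plain controls. Epithelial markers summed to 35.1 to 51.3 CPM in the 6 libraries and to 35.7 to 41.6 CPM in the plain controls.

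The PDS and Phen-DC3 controls, whose titles name different compounds, could be told apart in few genes. The labels do not say whether they were run as separate experiments. Of the 132 called, 111 were lower in the PDS controls (0.809% of all genes), and 53 (0.386%) were called in the corrected fit. The standard deviation over genes of the log2 difference was 0.40 for these 2 groups and 1.13 for their mean against the plain controls. The difference between these 2 groups also followed gene length, with a rank correlation of -0.33. Phen-DC3 controls lay somewhat nearer the plain controls, at a median absolute log2 difference of 0.578 to 0.693, against 0.671 to 0.755 for the PDS controls. Of the named genes Inhba and Kif20b were called, both lower in the PDS controls, by log2 differences of -0.85 and -0.93. The Phen-DC3 controls were the least even group, with squared differences between 2 libraries of 13.7 to 36.7 times the counting variance, against 4.28 to 11.5 in the other 2 groups. Phen-DC3 control 1 had 10.7% of counts in genes over 5000 bp and Phen-DC3 control 3 had 9.26%.

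The same difference of experiments was present in the treated libraries, which share no library with the untreated ones. With PDS and Phen-DC3 libraries set against Braco-19 libraries, 10325 of 13775 genes were called (75%). Of 7258 genes called in both untreated fits and tested here, 6614 (91.1%) were called in the same direction and 12 in the opposite one. The treated comparison also holds the compounds, so the 2 are not repeats of 1 experiment. Across 13552 genes, which are not independent replicates, Pearson's r of the 2 log2 differences was 0.93, or 0.90 after correction. Mki67 read 38.9, 41.1 and 52.2 CPM with PDS, 18.8, 19.8 and 27.9 CPM with Phen-DC3 and 543, 449.9 and 426 CPM with Braco-19. Ca9 read 1002, 981 and 932 CPM with PDS, 734, 643 and 709 CPM with Phen-DC3 and 149, 169 and 131 CPM with Braco-19. Both genes kept the untreated direction, with log2 differences of -3.92 and 2.46. Genes over 5000 bp held 7.42 to 8.91% of counts with PDS or Phen-DC3 and 23.3 to 25.2% with Braco-19, so the length trend was in these libraries as well.

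**Figure D4:**
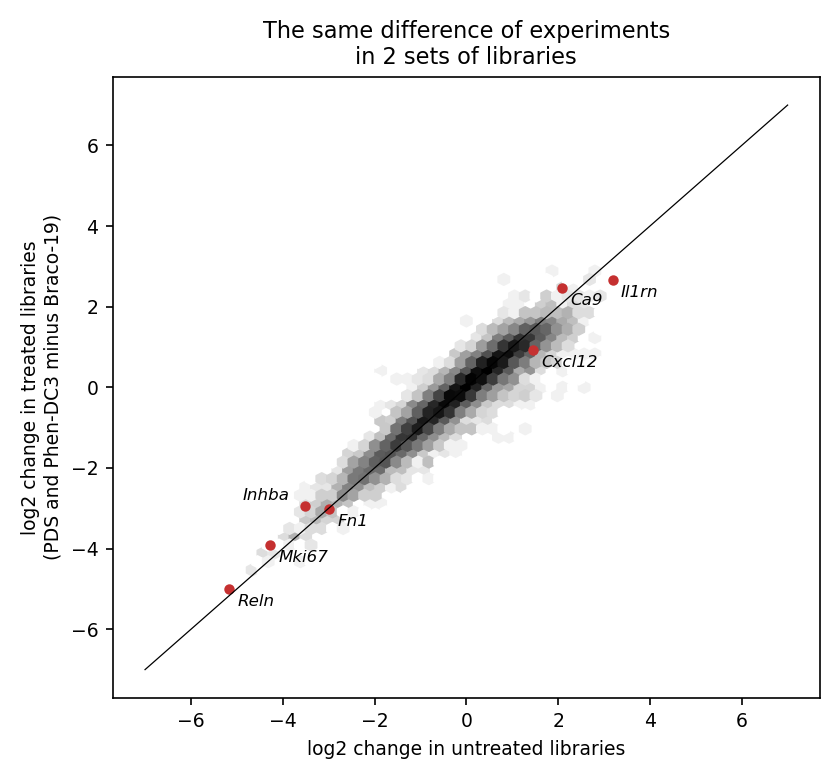
Log2 difference of each gene between the PDS and Phen-DC3 experiments and the remaining experiment in the treated libraries (y axis) against the same difference in the untreated libraries (x axis), with darker hexagons for more genes, 7 named genes in red and a line of equality. Mki67 lies at -4.27 and -3.92, and Ca9 at 2.09 and 2.46.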

How the data were processed

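RNA was sequenced in 18 libraries, of which the 9 untreated ones were fitted. As deposited, 33898 genes have raw whole-number counts, not normalized by the authors, and a gene model length in bp. The submitters' processing notes name CASAVA, HISAT2 and featureCounts 1.5.0-p3. Genome build, annotation and strandedness: not given in the sources used here. Without molecular identifiers, reads may be copies of 1 molecule.

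The analysis used edgeR 4.0.16 (R 4.3.3). Its filterByExpr function left 13727 genes (657 without a symbol), which were scaled by TMM and fitted with a robust quasi-likelihood model of 3 group means and 6 residual degrees of freedom. The contrast was the mean of the PDS and Phen-DC3 controls minus the plain controls, adjusted by Benjamini-Hochberg at 0.05. A second fit took as offset a loess curve (span 0.5) on log2 length. The curve was fitted to each library's log2 level minus the gene's mean over the fitted libraries. SEs came from the F statistics. The treated libraries were fitted alone, with 13775 genes. The scripts were tested on simulated data. DESeq2 1.42.0, other scalings, filters, a replicate block and left-out libraries were alternatives. Figures were drawn with matplotlib 3.10.9.

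Members, and 40 gene lists, were chosen with earlier results of these data known. Named genes were called in both fits in 1 direction: the 12 higher and 12 lower with the largest corrected difference (with mean log2 CPM of at least 3, a symbol that is not a placeholder and the 6 libraries on 1 side of the 3), up to 4 per list by smallest p, and preset genes whether called or not. Other genes were named after their values were seen. Some genes that the rule selected are not reported here. Same-numbered libraries did not deviate together (correlations of -0.09 to 0.16 in 9 pairs), so the numbers were not used as pairs.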

Additional observations from a re-analysis of the deposited data

Results flagged for a closer look

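Inhba and Kif20b differed between the PDS controls and the Phen-DC3 controls, the 2 groups that were otherwise close. The log2 difference, PDS controls minus Phen-DC3 controls, was -0.85 ± 0.17 (SE, adjusted p = 0.046) for Inhba and -0.93 ± 0.18 (SE, adjusted p = 0.044) for Kif20b in edgeR's quasi-likelihood test. Corrected for length, neither passed the threshold, with adjusted p of 0.061 and 0.081. Both genes were far higher in the plain controls than in either group.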

How the results depend on the processing

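The counts of 5033 genes higher and 5247 lower stayed within 1.5 times under other scaling factors, DESeq2, other filters and left-out libraries. With a minimum log2 difference of 1 built into the test they were 979 and 1839, for the PDS controls against the plain controls 1153 and 2019, and for the Phen-DC3 controls 640 and 1420. Without 1 library at a time they ran from 4683 to 5107 and from 4982 to 5410. For the PDS controls the ranges were 4567 to 4665 and 4895 to 5025, for the Phen-DC3 controls 4328 to 4686 and 4460 to 4774, and for the treated libraries 4867 to 5233 and 4955 to 5318. The long-gene difference ran from -16.23 to -15.68 percentage points. Without a plain control its exact permutation p was 0.0714, the smallest that 6 against 2 allow. Upper-quartile scaling moved the median of all genes to 0.10.

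With the replicate number as a block, 5025 genes were higher and 5238 lower, and with the length correction as well 4913 and 4495. Col2a1 reversed with the correction (0.57) and with the correction and the block (0.58). Of 167 named genes called, 164 kept call and direction in every alternative apart from the minimum difference, and 116 also with it. Cdkn1a, Mkx and Epcam were the exceptions to the first, and none of the 167 reversed. Apart from the preset genes, the 167 were picked because both fits called them in 1 direction. Keeping the call under the length correction was thus set by that choice and adds no support. Genes named after their values were seen, such as Col11a1, which changed sign on correction, are not counted here. Limits are that each state is known from 1 or 2 experiments, that the spread within a group may be technical, and that genes with under 1 CPM, such as Acan in the 6 libraries, rest on few reads.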

Other observations

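Classes of noncoding RNA also differed between the 2 states. Genes annotated as misc_RNA, among them copies of 7SK, the RNA that holds the elongation factor P-TEFb inactive, took 47.1 to 53.5 CPM (here of all counts in genes) in the plain controls and 4.08 to 9.35 in the 6 others. Spliceosomal and other snRNA genes took 28.9 to 31.1 against 5.43 to 9.78, and snoRNA genes 147.6 to 156.5 against 79.5 to 96.4. Sense intronic transcripts took 4.52 to 7.24 against 1.13 to 1.91, and lincRNA genes 1129 to 1185 against 621.5 to 758.3. Processed pseudogenes went the other way, with 834 to 955 in the plain controls and 1156 to 1582 in the others. None of these 6 classes overlapped between the states, but this was not particular to them. Most other classes did not overlap either, among them protein-coding genes, with 984200 to 984500 in the plain controls and 986600 to 987500 in the others. The classes that overlapped were mitochondrial rRNA, mitochondrial tRNA, antisense and miRNA genes. Mature snRNAs, snoRNAs and 7SK normally carry no poly(A) tail, and the labels do not say how RNA was selected for the libraries. These classes were looked at after the data were seen.

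Among 33898 genes, some had at least 10 counts in every library of 1 state and at most 1 count per library on average in the other. Found this way were 24 genes in the plain controls and 1 in the PDS and Phen-DC3 controls. The rule asked for 10 counts in 3 plain controls but in 6 libraries of the other state. The 2 numbers are therefore not like for like. Of the 24, 12 were gene models without an assigned name, several others had placeholder symbols, and 2 were copies of 7SK. The single gene of the other kind was Tmem37, with 11 to 23 counts in the PDS and Phen-DC3 controls and 0 to 2 in the plain controls. Its counts were 4 to 36 in the PDS and Phen-DC3 treated libraries and 1 to 2 with Braco-19.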
